A study of Mus musculus with 7 samples.

Results

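The genes described here are 7 that store, move or release iron: the ferritin chains Fth1 and Ftl1, the iron exporter ferroportin (Slc40a1), the transferrin receptor (Tfrc), the divalent metal transporters Slc11a1 and Slc11a2, and heme oxygenase 1 (Hmox1). They were chosen by symbol from a table of 24421 genes, and all 7 were present and passed the low-count filter that left 12428 tested genes. RNA sequencing compared eosinophils from muscle of 3 WT and 4 IL5-Tg samples. CD45-positive, SiglecF-positive cells, negative for NK1, Ly6G and CD3e, were sorted from digested muscle of both genotypes 3 days after ntx, an abbreviation that the labels leave unexplained. The series title concerns mdx mice, a model of Duchenne muscular dystrophy, but the sample labels name only WT and IL5-Tg, so whether either group carries the mdx mutation could not be settled. Strain, age, sex and the cells that express the IL-5 transgene are not given in the labels, nor do they state that each library is a different mouse. The p-values below therefore describe library-to-library spread, which may be technical.

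The transgene was visible in the libraries that bear its name: Il5 stood at 338 to 447 CPM (reads scaled to a common library size) in IL5-Tg libraries and at 0 to 1.39 CPM in WT libraries. WT replicate 3 stood apart from the other libraries. It had reads for 10877 genes, against 12759 to 14391 in the others, and nearly lacked fibroblast transcripts, so values without it are given with each of the 7 genes, and for other genes where it moves the value by over 1.5 times.

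Iron enters most cells bound to transferrin through the transferrin receptor, crosses the endosomal membrane through a divalent metal transporter and is either used, stored in ferritin shells or exported by ferroportin. Iron regulatory proteins bind a short RNA hairpin, the iron-responsive element. In a 5′ UTR this element blocks translation when iron is low, and in the 3′ UTR of the transferrin receptor it protects the RNA from decay. In injured muscle, phagocytes take up heme from damaged fibres and blood, heme oxygenase 1 frees its iron, and ferroportin returns it to the tissue.

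The hairpins found in Fth1, Ftl1, Slc40a1 and Tfrc are shown because iron regulatory proteins recognise this sequence, and read counts do not measure the translation they control. Annotated UTRs were searched on the sense strand for a C, 5 bases, the loop CAGTGN and 5 bases that pair with the first 5, G-T pairs allowed. Capitals mark the loop, written as DNA with T for U, 5′ to 3′ on the gene's strand (GENCODE vM21 transcripts, mm10).
Fth1 5′ UTR: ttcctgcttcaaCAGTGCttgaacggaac
Ftl1 5′ UTR: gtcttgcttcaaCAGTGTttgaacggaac
Slc40a1 5′ UTR: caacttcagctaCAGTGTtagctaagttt
Tfrc 3′ UTR, site 1: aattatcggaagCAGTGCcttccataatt
Tfrc 3′ UTR, site 2: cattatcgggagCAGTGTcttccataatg
Tfrc 3′ UTR, site 3: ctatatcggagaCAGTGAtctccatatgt
Tfrc 3′ UTR, site 4: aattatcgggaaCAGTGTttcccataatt
These sites lie at chr19:9982732-9982760 (plus strand) in Fth1, chr7:45459779-45459807 (minus) in Ftl1 and chr1:45925465-45925493 (minus) in Slc40a1. The 4 Tfrc sites lie on the plus strand at chr16:32631219-32631247, chr16:32631598-32631626, chr16:32631663-32631691 and chr16:32631710-32631738. Such a match was present in the 5′ UTR of 0.148% of 20899 genes and in the 3′ UTR of 0.614% of 21022 genes. The search found no match in the annotated UTRs of Slc11a1, Slc11a2 or Hmox1, which says only that these letters are not there. It allowed no unpaired base in the 5-base stem and no other loop, so an element of another form would be missed. The search therefore does not show that these genes lack an iron-responsive element, or that every element of Tfrc was found. A match is a description of the letters. The Fth1 site was in 4 of 5 annotated coding transcripts, the Ftl1 site in 1 of 2, the Slc40a1 site in 1 of 4 and each Tfrc site in 1 of 3. Counts per gene do not separate transcripts with and without a site.

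None of the 7 genes passed the test between genotypes, by edgeR, by DESeq2 or by limma-voom, and 0 had an unadjusted p under 0.05 in edgeR. Among all tested genes 0.410% were called, so a count of 0 among 7 is near the background. The groups overlapped for all 7, against 9.36% of tested genes whose groups did not overlap. The median log2 fold change of the 7 (IL5-Tg minus WT) was 0.11, against 0.03 over all tested genes. A missed threshold does not show equal levels, so the interval of each difference is given. In bulk RNA, fewer cells of a type and less RNA per cell cannot be told apart.

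The 7 genes fell into 3 tiers of level. Per kilobase of transcript, Ftl1 stood at 4363 CPM per kb over the 7 libraries. Fth1 stood at 3072 or 4941 CPM per kb, with its longest (1494 bases) or shortest (929 bases) principal transcript. Slc11a1 followed at 121 and Hmox1 at 93.1 CPM per kb. Tfrc, at 8.59, Slc40a1, at 5.62, and Slc11a2, at 4.32 CPM per kb, formed the lowest tier. Ranges over libraries overlapped between neighbours within a tier and not between tiers: the lowest Hmox1 value was 24.0 and the highest Tfrc value 12.1 CPM per kb.

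**Figure D1:**
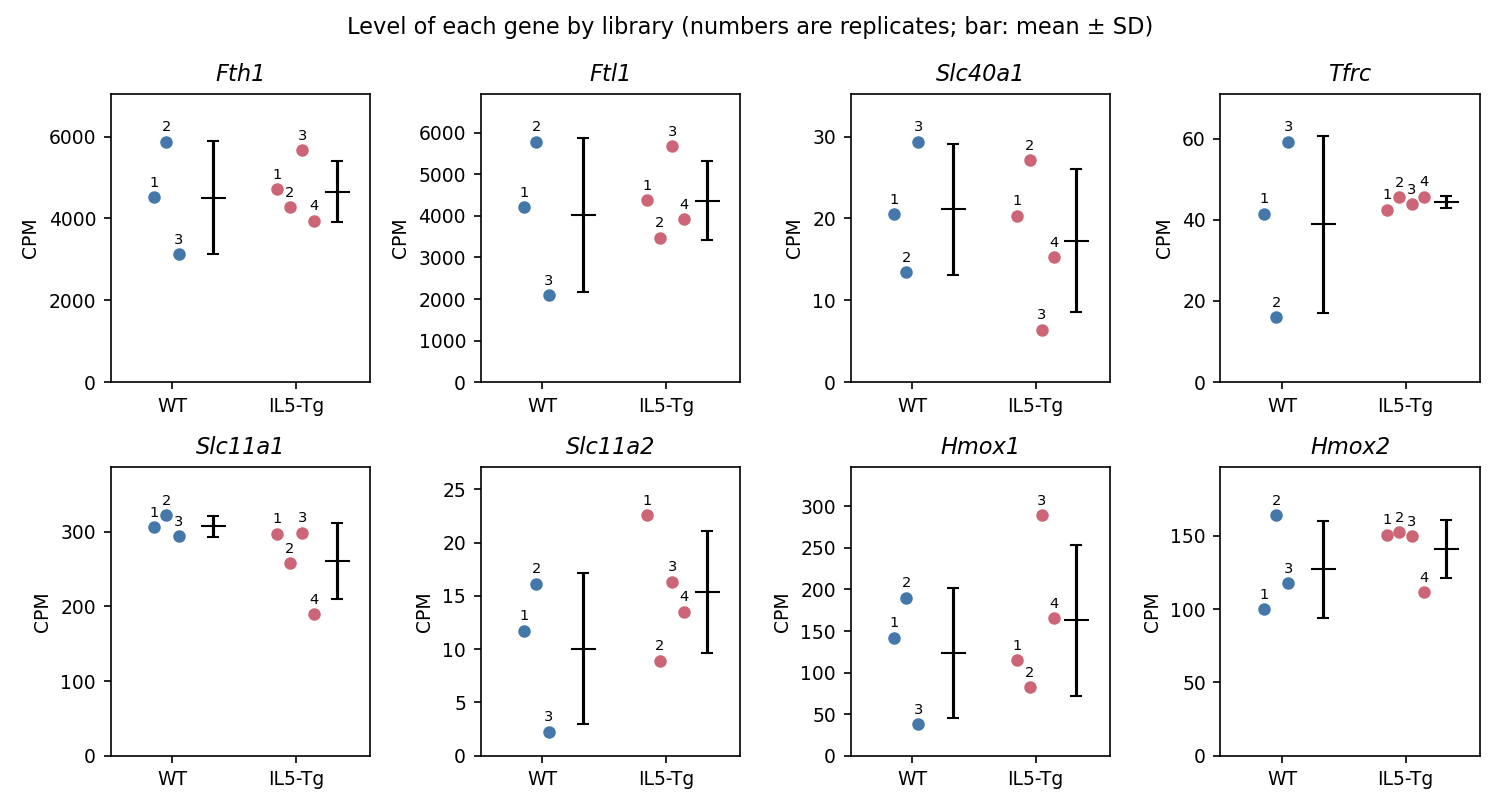
Level of the 7 iron genes and of Hmox2 in each library, in CPM on TMM-scaled library sizes, with 1 panel a gene and every axis from 0. Points are libraries numbered by replicate and bars are mean ± SD of 3 WT or 4 IL5-Tg libraries. The groups overlap in all panels, and WT replicate 3 is the lowest point for Fth1, Ftl1, Slc11a2 and Hmox1.

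Ferritin RNA was among the most abundant in these cells and did not pass the test between genotypes. Fth1 encodes the heavy chain, whose ferroxidase site oxidises iron for storage (chromosome 19, 9980598 to 9985098, plus strand, mm10). Its level was 4521, 5878 and 3120 CPM in the WT libraries, and 4719, 4279, 5669 and 3947 CPM in the IL5-Tg libraries, both in order of replicate number. WT replicate 3 was the lowest and WT replicate 2 the highest library, so the WT libraries enclosed all the IL5-Tg values. WT libraries averaged 4506 ± 1379 CPM (SD, n = 3) and IL5-Tg libraries averaged 4653 ± 747 CPM (SD, n = 4). This gave a log2 fold change of 0.05 ± 0.29 (SE, 95% interval -0.60 to 0.69, edgeR adjusted p = 0.979). By mean CPM, not corrected for length, Fth1 was gene number 7 and Ftl1 number 9 of the table.

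Ftl1 encodes the light chain, which supports mineral formation in the ferritin core (chromosome 7, 45457944 to 45459884, minus strand). It had 4215, 5788 and 2093 CPM in the WT libraries and 4381, 3478, 5683 and 3924 CPM in the IL5-Tg libraries. WT replicates 2 and 3 again enclosed the IL5-Tg libraries. WT libraries averaged 4032 ± 1855 CPM (SD, n = 3) and IL5-Tg libraries averaged 4367 ± 952 CPM (SD, n = 4). The log2 fold change was 0.11 ± 0.36 (SE, 95% interval -0.68 to 0.90, edgeR adjusted p = 0.960). Both chains together took 0.476% of gene reads in WT replicate 3 and 0.707% to 1.18% in the other 6 libraries. Ferritin genes have processed copies elsewhere in the genome (Fth-ps2, Fth-ps3, Ftl1-ps2 and Ftl2-ps in the annotation). A further gene, Ftl1-ps1, is annotated as protein-coding. The division of reads among all of these genes is therefore uncertain. Exons of Ftl1 also overlap Gm10252 on the opposite strand by 355 bases.

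Without WT replicate 3 both ferritin values turned negative, at -0.14 for Fth1 and -0.18 for Ftl1, and without WT replicate 2 they were 0.31 and 0.50. Neither passed in any of these fits.

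Slc40a1, ferroportin, is the only known exporter of iron from mammalian cells (chromosome 1, 45908068 to 45926523, minus strand). Its level was low, at 20.5, 13.4 and 29.4 CPM in the WT libraries and 20.3, 27.1, 6.41 and 15.3 CPM in the IL5-Tg libraries. The lowest library was IL5-Tg replicate 3, with 88 reads, and the highest was WT replicate 3, with 311 reads. WT libraries averaged 21.1 ± 8.01 CPM (SD, n = 3) and IL5-Tg libraries averaged 17.3 ± 8.73 CPM (SD, n = 4). The fitted log2 fold change was -0.29 ± 0.47 (SE, 95% interval -1.33 to 0.75, edgeR adjusted p = 0.926). Without WT replicate 3 the value was 0.054.

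Tfrc, the receptor that brings in transferrin-bound iron and a gene that dividing cells need (chromosome 16, 32608920 to 32632794, plus strand), was steady in IL5-Tg libraries and scattered in WT libraries. It had 41.5, 15.9 and 59.3 CPM in the WT libraries, and 42.4, 45.5, 43.8 and 45.6 CPM in the IL5-Tg libraries. WT replicate 2 was the lowest and WT replicate 3 the highest of all. The coefficient of variation was 56.0% in WT and 3.42% in IL5-Tg libraries, where the median over all tested genes was 44.2% and 25.2%. WT libraries averaged 38.9 ± 21.8 CPM (SD, n = 3) and IL5-Tg libraries averaged 44.3 ± 1.52 CPM (SD, n = 4). This gave a log2 fold change of 0.19 ± 0.38 (SE, 95% interval -0.64 to 1.02, edgeR adjusted p = 0.940). It was -0.16 without WT replicate 2 and 0.66 without WT replicate 3.

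Slc11a1, known as NRAMP1, pumps divalent metals out of the phagosomes of macrophages and granulocytes (chromosome 1, 74375195 to 74386062, plus strand). It had 306, 322 and 294 CPM in the WT libraries and 297, 258, 299 and 189 CPM in the IL5-Tg libraries. The WT values were close together, IL5-Tg replicates 1 and 3 lay just inside their range, and IL5-Tg replicates 2 and 4 lay below it. WT libraries averaged 308 ± 14.1 CPM (SD, n = 3) and IL5-Tg libraries averaged 261 ± 51.3 CPM (SD, n = 4). The log2 fold change was -0.24 ± 0.24 (SE, 95% interval -0.76 to 0.29, edgeR adjusted p = 0.874). This was the narrowest interval of the 7. In this fit it ran from a 0.59-fold to a 1.22-fold level in IL5-Tg against WT libraries. The value stayed negative in all 16 alternative fits, between -0.40 and -0.12, and was -0.25 without WT replicate 3.

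Slc11a2, known as DMT1, carries iron across the endosomal membrane after its release from transferrin (chromosome 15, 100387898 to 100425072, minus strand). It had 11.7, 16.2 and 2.27 CPM in the WT libraries and 22.6, 8.92, 16.3 and 13.5 CPM in the IL5-Tg libraries. WT replicate 3 stood apart with 24 reads, and the other libraries had 116 to 260. WT libraries averaged 10.05 ± 7.09 CPM (SD, n = 3) and IL5-Tg libraries averaged 15.3 ± 5.72 CPM (SD, n = 4). The fitted log2 fold change was 0.61 ± 0.59 (SE, 95% interval -0.69 to 1.91, edgeR adjusted p = 0.868). Without WT replicate 3 the value was 0.15, and without WT replicate 2 it was 1.16. Exons of Slc11a2 overlap those of Gm5475 on the opposite strand by 402 bases, and the strand setting of the counting is not given in the sources used here.

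Hmox1 encodes the inducible enzyme that breaks heme down to biliverdin, carbon monoxide and iron (chromosome 8, 75093621 to 75100589, plus strand). It had 142, 190 and 37.7 CPM in the WT libraries and 115, 82.3, 289 and 165 CPM in the IL5-Tg libraries. WT replicate 3 was the lowest and IL5-Tg replicate 3 the highest, 7.68-fold apart, with the other 5 libraries between them. WT libraries averaged 123 ± 77.9 CPM (SD, n = 3) and IL5-Tg libraries averaged 163 ± 91.0 CPM (SD, n = 4). This gave a log2 fold change of 0.40 ± 0.58 (SE, 95% interval -0.91 to 1.72, edgeR adjusted p = 0.918). It was -0.030 without IL5-Tg replicate 3, -0.011 without WT replicate 3 and 0.89 without WT replicate 2.

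Hmox2, the constitutive heme oxygenase, varied less. It had 99.9, 164 and 118 CPM in the WT libraries and 151, 152, 150 and 112 CPM in the IL5-Tg libraries. Its highest and lowest libraries were 1.64-fold apart and both were WT. The log2 fold change was 0.15 ± 0.25 (SE; edgeR adjusted p = 0.931). Single libraries moved it: leaving out WT replicate 1, 2 or 3 gave 0.0080, 0.40 or 0.11, and leaving out IL5-Tg replicate 4 gave 0.24. Exons of Hmox2 overlap those of Cdip1 on the opposite strand by 892 bases.

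**Figure D2:**
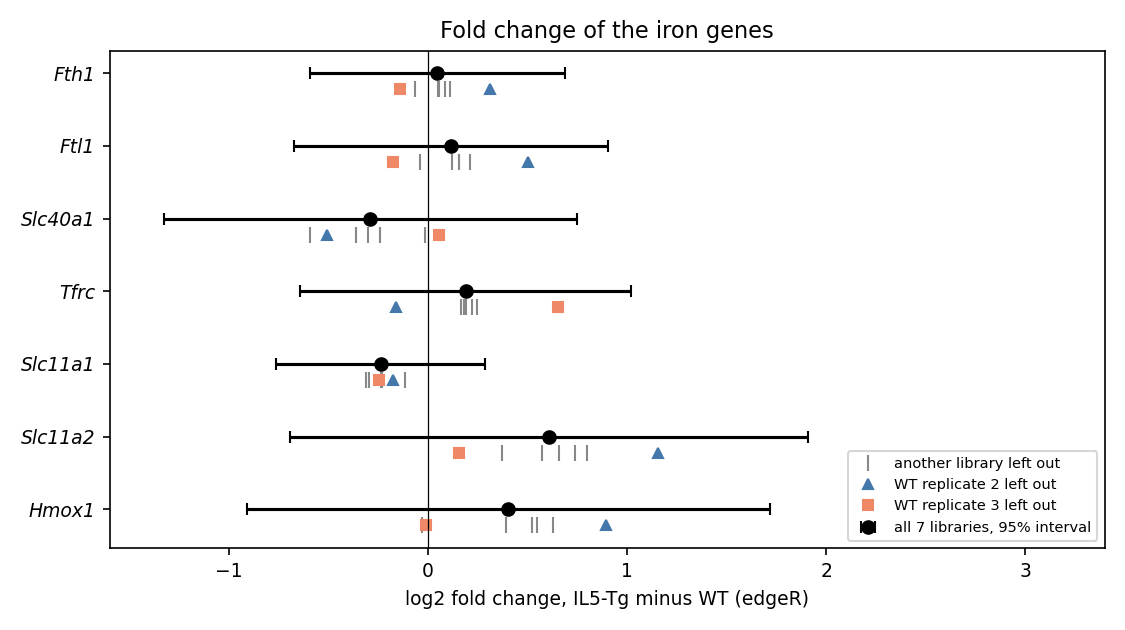
Log2 fold change (IL5-Tg minus WT, edgeR) of the 7 genes on the horizontal axis, with circles and 95% intervals for all 7 libraries and smaller marks below each for fits with 1 library left out. Every interval spans 0, and for Fth1, Ftl1, Tfrc and Slc11a2 leaving out WT replicate 2 and WT replicate 3 gives the outermost values.

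Within each genotype single libraries stood apart. WT replicate 3 was the lowest of the 7 libraries for Fth1, Ftl1, Slc11a2 and Hmox1, or 4 of 7 members, while 35.1% of all tested genes were lowest there. In the same library Slc40a1 and Tfrc were at their highest. Relative to the mean of the 7 libraries, on the log2(CPM + 1) scale, WT replicate 3 lay at -1.70 for Hmox1, -1.91 for Slc11a2, -0.95 for Ftl1 and -0.53 for Fth1, and at 0.73 for Slc40a1 and 0.57 for Tfrc. IL5-Tg replicate 3 showed the reverse for heme oxygenase and ferroportin, with Hmox1 at 1.21 and Slc40a1 at -1.30. WT replicate 2 held the low value of Tfrc, at -1.26, beside high values of both ferritin chains, at 0.38 and 0.52.

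**Figure D3:**
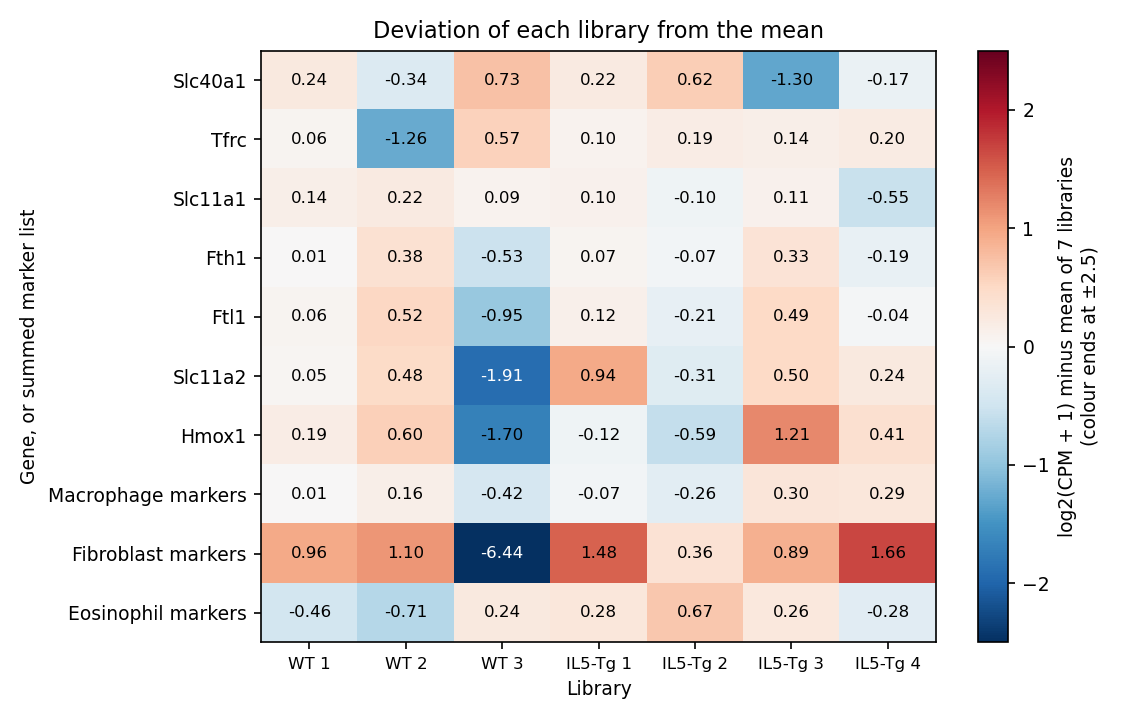
Deviation of each library (columns) from the mean of the 7 libraries, as log2(CPM + 1), for each iron gene and for the summed CPM of 3 marker lists (rows), with red above and blue below the mean. Slc40a1 and Tfrc are above their means in WT replicate 3, where Fth1, Ftl1, Slc11a2, Hmox1 and the macrophage and fibroblast markers are below theirs.

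The eosinophil markers Siglecf, at 251 to 857 CPM, and Ccr3, at 575 to 1393 CPM, were present in every library. The cells' own markers also differed between genotypes. Of 11 eosinophil markers 3 rose in IL5-Tg libraries, the granule genes Prg2, Ear1 and Ear6 (edgeR adjusted p = 0.0160, 0.00311 and 0.0268). Among all tested genes 0.410% were called. Mean levels in WT and IL5-Tg libraries were 120 ± 21.2 and 815 ± 320 CPM for Prg2, and 2.35 ± 1.90 and 29.1 ± 7.67 CPM for Ear6 (SD, n = 3 and 4). Ear1 ranged from 7.73 to 11.3 CPM in WT and from 49.3 to 99.7 CPM in IL5-Tg libraries. The IL-5 receptor gene Il5ra had 130 ± 48.9 CPM in WT (SD, n = 3) and 66.7 ± 18.3 CPM in IL5-Tg libraries (SD, n = 4), at -0.97 (edgeR adjusted p = 0.363). Groups did not overlap for 5 of the 11, against 9.36% of all tested genes.

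Some markers of other granulocytes passed the test between genotypes too, while those of muscle did not. Of 7 tested mast cell and basophil markers (median log2 fold change -2.29), 6 did not overlap, against 9.36% of all tested genes. Of the 7, 1 was called, against 0.410% of all tested genes. It was the histamine enzyme gene Hdc, which fell, at -2.51 (edgeR adjusted p = 0.0236). Gata2, among the 6 without overlap, went the other way, at 1.57 (edgeR adjusted p = 0.126). It had 14.3 to 35.3 CPM in WT and 56.3 to 75.0 CPM in IL5-Tg libraries. Of 8 tested neutrophil markers (median -1.36), Retnlg fell, at -1.58, and Ngp rose, from at most 0.362 CPM in WT to 26.3 to 33.5 CPM in IL5-Tg libraries (edgeR adjusted p = 0.0416 and 0.00311). Calls were thus 1 higher and 1 lower among the 8, against 0.410% of all tested genes called. Their groups did not overlap for 3, against 9.36% of all tested genes. The neutrophil list summed to 10245 to 13813 CPM in WT and 3331 to 5929 CPM in IL5-Tg libraries, and most of this sum was Retnlg and Mmp9. In WT replicate 3, where the sum was highest, Retnlg had 9838 and Mmp9 3932 CPM, while S100a8 and S100a9 had 2.36 and 5.77 CPM. WT replicates 1 and 2 had 157 and 65.1 CPM of S100a8 and 171 and 43.2 CPM of S100a9. IL5-Tg libraries had 5.43 to 10.8 CPM of S100a8 and 4.78 to 10.3 CPM of S100a9. Their log2 fold changes were -3.08 and -3.36 (edgeR adjusted p = 0.407 and 0.316). Only Ngp of the 8 tested markers had a positive log2 fold change. The sum therefore does not stand for the level of the list's other members in every library. Of 9 muscle fibre markers none passed (median 1.55), and their sum was 127 to 381 CPM in WT and 399 to 1245 CPM in IL5-Tg libraries. For 3 of these 9 the groups did not overlap, against 9.36% of all tested genes, so a missed threshold does not show equal muscle RNA. The part of these differences in the iron gene values was not tested.

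Macrophage and fibroblast markers moved with part of the pattern over libraries. All 16 macrophage and monocyte markers were detected, with no member at 0 in all libraries, and their summed level was 5852 to 8751 CPM in WT and 6554 to 9690 CPM in IL5-Tg libraries. The sum was lowest in WT replicate 3 and highest in IL5-Tg replicate 3, the libraries with the lowest and highest Hmox1. Of the 16, 9 were lowest in WT replicate 3. The complement gene C1qa had 68.4 CPM there and 350 to 776 CPM elsewhere, while the most abundant markers, Adgre1 and Apoe, had 2459 and 717 CPM there. Adgre1, which eosinophils also express, was at its highest in that library. Fibroblast markers summed to 16.3 CPM in WT replicate 3 and to 1920 to 4744 CPM in the other libraries. Of the 8 erythroid markers, the 4 globin genes were at 0 reads in every library, Alas2 was at 3.26 to 23.8 CPM and Slc4a1 at 0 to 3.54 CPM. The counting method and annotation are not given, so the globin zeros do not show that globin RNA was absent.

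With the mean level of the macrophage markers as a covariate in the edgeR fit, the log2 fold changes were -0.094 for Fth1, -0.10 for Ftl1, 0.028 for Slc40a1, -0.048 for Hmox1, 0.38 for Slc11a2, -0.25 for Slc11a1 and 0.59 for Tfrc. None passed, the smallest being Tfrc (edgeR adjusted p = 0.601). The part that RNA of other cells has in these levels was not tested beyond this fit.

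Ratios within a library do not depend on library scaling, and they are given as descriptions with no test, since they join genes chosen with results known. Fth1 and Ftl1 reads were nearly equal in most libraries. The log2 ratio of Fth1 to Ftl1 reads was 0.10, 0.02 and 0.58 in the WT libraries and 0.11, 0.30, -0.0038 and 0.0084 in the IL5-Tg libraries, so WT replicate 3 held relatively more heavy chain reads. The log2 ratio of Tfrc to Slc40a1, importer to exporter, was 1.01, 0.25 and 1.01 in WT and 1.06, 0.75, 2.76 and 1.58 in IL5-Tg libraries. Tfrc had more reads than Slc40a1 in all 7 libraries, from 1.19 to 6.80 times as many. The means of this log2 ratio were 0.76 ± 0.44 (SD, n = 3) and 1.54 ± 0.89 (SD, n = 4), and the groups overlapped. The log2 ratio of Hmox1 to Hmox2 was 0.51, 0.21 and -1.64 in WT and -0.39, -0.89, 0.95 and 0.57 in IL5-Tg libraries. The inducible enzyme thus had more reads than the constitutive one in 4 libraries, 2 of each genotype, and fewer in the other 3.

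**Figure D4:**
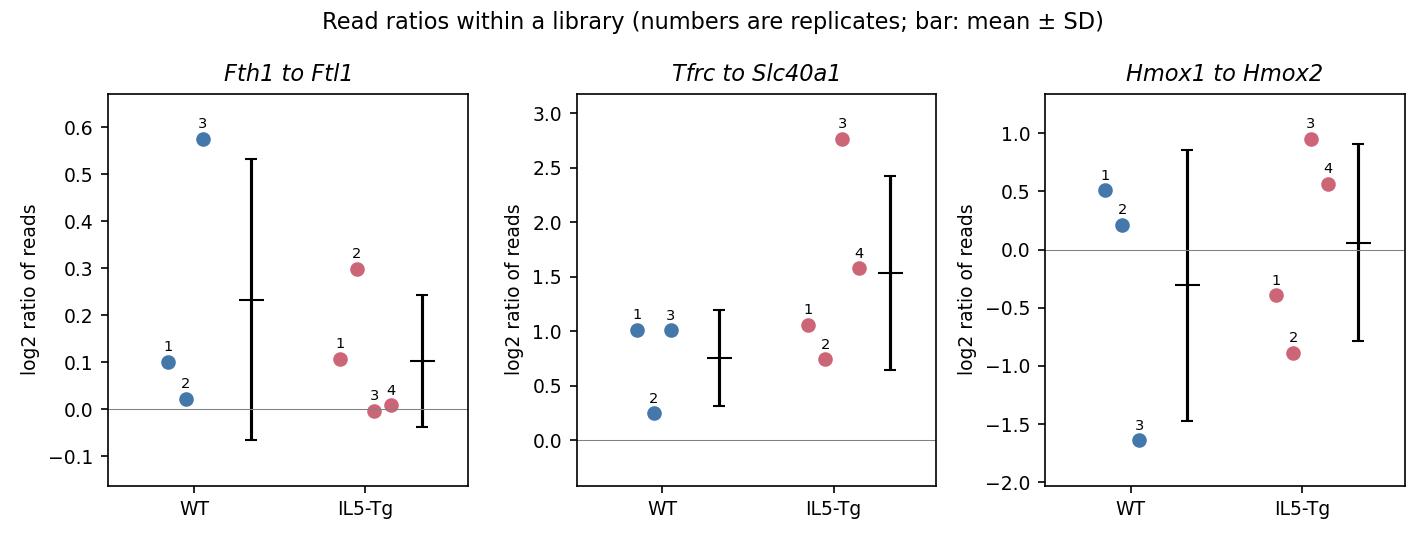
Log2 ratio of reads within each library for Fth1 to Ftl1, Tfrc to Slc40a1 and Hmox1 to Hmox2 (panels), by genotype. Points are libraries numbered by replicate, and bars are mean ± SD of 3 WT or 4 IL5-Tg libraries. WT replicate 3 is highest for Fth1 to Ftl1 and lowest for Hmox1 to Hmox2, and IL5-Tg replicate 3 is highest for the other ratios.

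The wider iron pathway gave no call either. Of 112 genes on 6 lists, 100 were tested and 0 passed by edgeR or limma-voom, while DESeq2 called 1, Slc25a37. At an unadjusted p under 0.05 there were 11.0% of them, against 9.04% of all tested genes, and 7 of the 100 had groups that did not overlap, below the 9.36% of all tested genes. Their median log2 fold change was 0.16. On simulated counts for the 12428 tested genes, edgeR recovered 0% of genes changed 2-fold, 44% at 4-fold and 74% at 8-fold, so most changes of 2-fold were below what this design detects.

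Among carriers and other transport genes, 0 of 20 tested passed (median log2 fold change 0.42). WT replicate 3 was the lowest library for 15 of the 20, as it was for 35.1% of all tested genes. The median without that library was not tested. The haptoglobin gene Hp, whose product binds free hemoglobin, averaged 77.8 ± 15.4 CPM in WT libraries (SD, n = 3) and 42.5 ± 7.28 CPM in the others (SD, n = 4), without overlap (log2 fold change -0.87, edgeR adjusted p = 0.255). Transferrin (Trf) had 264 ± 107 and 135 ± 34.3 CPM (log2 fold change -0.97, edgeR adjusted p = 0.385). Without WT replicate 3 Trf was at -0.63.

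Among genes of iron sensing and ferritin turnover, 0 of 11 passed (median 0.08). Aco1, which encodes iron regulatory protein 1, had 26.9, 43.2 and 15.9 CPM in the WT libraries and 64.4, 43.5, 59.8 and 45.1 CPM in the IL5-Tg libraries, without overlap (log2 fold change 0.89, edgeR adjusted p = 0.474). Without WT replicate 2 the value was 1.34. Hif1a, the oxygen-regulated transcription factor whose targets include Tfrc and Hmox1, had 131 ± 49.5 and 248 ± 21.8 CPM (SD, n = 3 and 4; log2 fold change 0.92, edgeR adjusted p = 0.342), also without overlap.

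Of the mitochondrial iron and iron-sulfur cluster genes, 0 of 21 passed (median 0.03). Slc25a37, mitoferrin-1, which brings iron into mitochondria, had the smallest p of the 100. It had 87.8, 21.6 and 91.6 CPM in the WT libraries and 7.96, 14.2, 17.6 and 21.7 CPM in the IL5-Tg libraries. WT replicates 1 and 3 were high, and WT replicate 2 lay level with IL5-Tg replicate 4. Its log2 fold change was -2.12 ± 0.49 (SE; 95% interval -3.22 to -1.02; edgeR adjusted p = 0.149). By DESeq2 the adjusted p was 0.00589, and by edgeR without WT replicate 2 it was 0.0262, so its call depended on the tool and on that library. Over all 16 alternatives the adjusted p ranged from 0.00589 to 0.999. The cysteine desulfurase gene Nfs1, which supplies sulfur for clusters, stood at 0.94 (edgeR adjusted p = 0.465).

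Heme handling genes (0 of 19 passed, median 0.15) included Alas1 and Alas2, the first enzymes of heme synthesis, at 0.58 and 1.23 (edgeR adjusted p = 0.670 and 0.688). Alas1 was at 0.89 without WT replicate 3, while Alas2 was at 1.95 without WT replicate 2 and at 0.73 if IL5-Tg replicate 3 was left out. Of the NRF2 and BACH1 axis, which controls ferritin and Hmox1 transcription under oxidative stress, 0 of 21 passed (median 0.13). Its members with the smallest p were thioredoxin reductase Txnrd1, at -1.12, and Nfe2l2, the gene of NRF2 itself, at -0.71 (edgeR adjusted p = 0.356 and 0.423). Without WT replicate 3 Txnrd1 was at -0.56 (edgeR adjusted p = 0.643). Of genes that control lipid peroxides and ferroptosis, 0 of 8 passed (median 0.11), with Gch1 at -0.78 and Lpcat3 at 0.96 (edgeR adjusted p = 0.425 and 0.459).

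**Figure D5:**
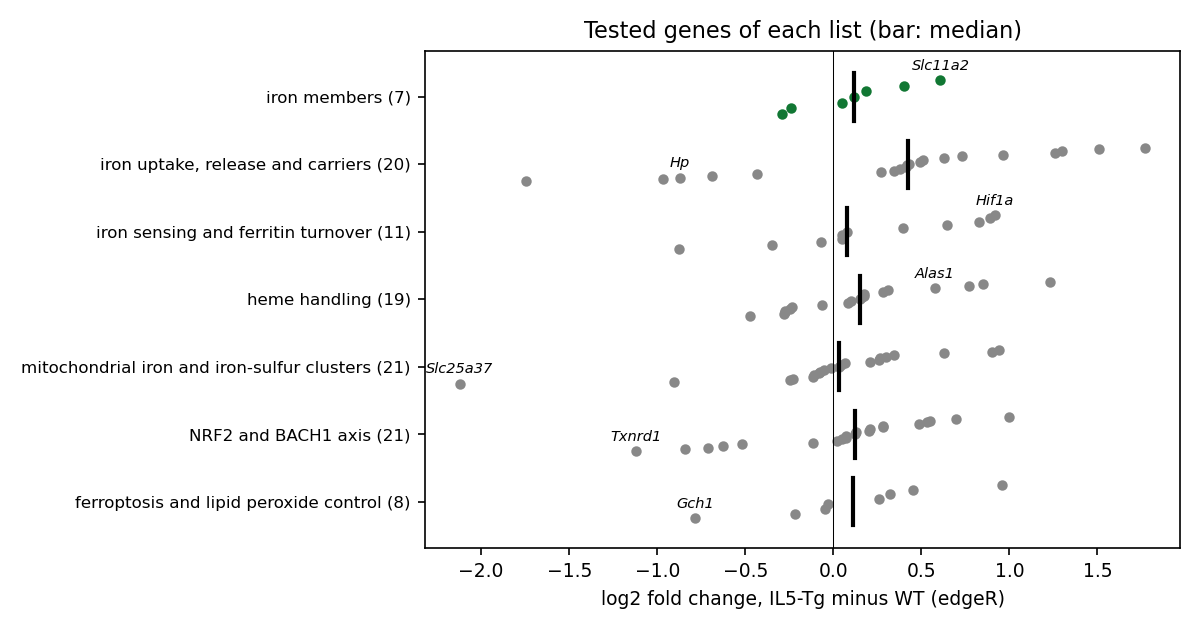
Log2 fold change (IL5-Tg minus WT, edgeR) of every tested gene on the list of 7 and the 6 lists of other iron genes, with the number tested in parentheses, the median as a bar and the gene with the smallest p named. Slc25a37 lies lowest, at -2.12, and no gene shown passed the test.

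For each of the 7 genes the nearest patterns over the 7 libraries were sought among 7916 genes with a mean of at least 10 CPM, by the root mean square difference of centred log2(CPM + 1). This is a description of these libraries and says nothing of shared control. Nearest to Fth1 were Hsd17b10 and Rrp8 (0.04 and 0.06), and to Ftl1 1110012L19Rik and Nudt5 (0.08 and 0.09). The other ferritin chain lay at 0.20. Nearest to Tfrc were Foxj3 and Arhgap11a (0.08 and 0.13), to Slc11a1 Tbc1d10a and Brk1 (both 0.07), and to Slc11a2 Apex1 and Agpat3 (0.09 and 0.14). Slc40a1 and Hmox1 had no neighbour as close, with Gcnt2 and Pla2g7 at 0.24 and 0.26 from Slc40a1 and Tbc1d9 and Lgmn at 0.19 and 0.23 from Hmox1. Hmox1 and Slc40a1 were the farthest apart of all pairs of the 7, at 1.47.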

How the data were processed

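The authors deposited unnormalized read counts for each gene symbol and library, which are whole numbers with unequal totals. The submitters' processing notes list bcl2fastq 2.20, STAR, Bowtie and mm10, without roles. How reads were counted, with which annotation and strand setting, is not given in the sources used here. Rows for unassigned and ambiguous reads (9.15% to 18.2% and 0.750% to 0.943% of a library) were left out. The unassigned share was 16.5%, 15.6% and 18.2% in WT replicates 1 to 3 and 9.15%, 12.2%, 9.78% and 13.0% in IL5-Tg replicates 1 to 4. Total counts ran from 11581365 to 20231509. The most common low count per gene was 5, 6 and 12 reads in WT replicates 1 to 3 and 1, 2, 1 and 4 in IL5-Tg replicates 1 to 4, so reads are not independent molecules. Neither the unassigned share nor the most common low count overlapped between genotypes. Differences in library quality therefore cannot be told apart from genotype in the comparisons given here. Replicate numbers follow accession order and pair nothing. Between replicates, chi-square per gene was 26.0 to 149, so no library is a copy of another's counts. This measure takes reads as independent, so it does not show that libraries come from different mice.

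The test was edgeR 4.0.16 quasi-likelihood (R 4.3.3, TMM, filterByExpr, robust, genotype only, all 7 libraries), with Benjamini-Hochberg adjustment over 12428 genes and calls at 0.05. It was tested on simulated data. CPM use TMM-scaled sizes, and ratios added 0.5 reads. The named genes were the 7 members, Hmox2, for each pathway list the called members or the 2 with the smallest p, the 2 most abundant tested macrophage and erythroid markers, and the 2 nearest patterns per member. Il5, C1qa, Siglecf, Ccr3, Prg2, Ear1, Ear6, Il5ra, Hdc, Gata2, Retnlg, Ngp, Mmp9, S100a8 and S100a9 were named outside this rule, after their values were seen. Members and lists were chosen with earlier results of these data known. Alternatives were RLE and upper-quartile scaling, DESeq2 1.42.0, limma-voom 3.58.1, other filters, a block for samples whose titles start alike, the macrophage marker covariate, and leaving out each library.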

Additional observations from a re-analysis of the deposited data

Results flagged for a closer look

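Hmox2 had 1 library far from the others of its group. IL5-Tg replicate 4 was at 112 CPM and the other IL5-Tg libraries at 150 to 152 CPM, so the gap took up 0.935 of the group's whole range, more than the 95% critical value of Dixon's test for 4 libraries. Of 11 such groups examined it was the 1 that passed, and chance gives about 1 in 20. IL5-Tg replicate 4 was also the lowest library for Slc11a1, at 189 CPM.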

How the results depend on the processing

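None of the 7 genes passed in any of the 16 alternatives, with the smallest adjusted p (0.387, Slc11a2) without WT replicate 2. Slc11a1 and Slc11a2 kept their direction in all 16. With the macrophage covariate, Fth1 (-0.094), Ftl1 (-0.10), Slc40a1 (0.028) and Hmox1 (-0.048) changed sign, and with the title start as a block Fth1 (-0.12) and Ftl1 (-0.065) did. That start ties 2 WT to 2 IL5-Tg libraries, and what it marks is not given. WT replicate 3 and IL5-Tg replicates 1 and 2 share no start with the other genotype, so the block fold changes rest on the tied libraries. In that block fit Slc40a1 was at -0.74, Tfrc at 0.79, Slc11a2 at 0.11, Slc11a1 at -0.40, Slc25a37 at -1.17, Txnrd1 at -0.55, Nfs1 at 0.62, Trf at -0.31 and Hmox2 at 0.014, and none of these passed. Leaving out 1 library gave log2 fold changes of -0.14 to 0.31 for Fth1, -0.18 to 0.50 for Ftl1, -0.59 to 0.054 for Slc40a1, -0.16 to 0.66 for Tfrc and -0.030 to 0.89 for Hmox1. The causes were not tested. Genes called over the whole table numbered 51 (42 higher, 9 lower), 224 by DESeq2 (145 and 79), 32 by limma-voom, 111 with the macrophage covariate, 91 with counts divided by the most common low count (chosen after seeing the data) and 16 to 97 with 1 library left out (30 higher and 31 lower without WT replicate 2, where the median of all genes moved to 0.11). The differences in mean log2 ratio (IL5-Tg minus WT) moved by less than the larger of the 2 group SDs in all alternatives, but without WT replicate 3 those of Fth1 to Ftl1 (-0.13) and Hmox1 to Hmox2 (0.37) changed sign, to 0.041 and -0.30. By replicate number no paired analysis was possible, because those numbers follow accession order, so the fit with title start as a block is the one blocked fit. Slc11a2 in WT replicate 3, with 24 reads, amounts to 2 times that library's most common low count.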
